A study of Mus musculus with 2 samples.

Results

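The fragments described here come from Snord14a, Snord14c, Snord14d and Snord14e, the 4 annotated mouse copies of the small nucleolar RNA U14. They were taken as all sequences of 15 to 17 nt with an exact, full-length match on the sense strand of any of these genes in the GENCODE M21 transcripts, and a sequence held by several copies was counted once. This gave 15 distinct sequences of the 96471 of that length in the data, with 391 reads in one library and 87 in the other. Each of the 4 genes was matched by at least 1 read, of 25343 annotated genes with a sense match. The family was chosen with its reads in these libraries already known, so its levels are given as a description and not as a finding of a search.

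The libraries were made from total RNA of J1 mouse embryonic stem cells, an established line of strain 129S4/SvJae labelled as derived from the inner cell mass, grown on gelatin with Knockout Serum Replacement. One library came from cells kept for 24 h with 3 µM SB431542, which blocks the kinase activity of the activin, Nodal and TGF-beta type I receptors. The control came from cells given an equal volume of its solvent, DMSO, for the same 24 h. Both cultures had LIF, the cytokine that holds mouse stem cells in the undifferentiated state, at 1000 U/mL. With 1 library in each group, no difference between them has a replicate check and no p-value is given. The sequences analysed were at most 17 nt long, and whole snoRNAs are not analysed here.

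The libraries held 990296 reads of 15 to 17 nt with DMSO and 517535 with SB431542, and levels are given as reads per 1000000 of these (RPM). On that scale 3 reads, taken throughout as the one-sided 95% upper limit of a count of 0, correspond to 3.03 RPM with DMSO and 5.80 RPM with SB431542. All 95% intervals are for counting error alone, because each group had 1 library. PCR copies without molecular identifiers cannot be told from separate molecules, so the intervals may be too narrow even for counting error. Hairpins of the stem-cell miR-290 to miR-295 cluster had 39310 reads with DMSO and 10442 with SB431542. The numbers were 56 and 9 for miRNAs of fibroblasts and feeder cells, 39 and 14 for let-7, and 1 and 0 for those of blood cells. These counts are not scaled to library size, and the DMSO library held 1.91 times as many reads of 15 to 17 nt.

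U14 is a box C/D snoRNA, a class of short nucleolar RNAs that carry 2 conserved motifs, box C near the 5′ end and box D near the 3′ end, brought together by a short stem of the RNA ends and bound by a shared set of proteins that includes the methyltransferase fibrillarin. The bases just upstream of box D pair with ribosomal RNA and direct 2′-O-methylation, in the case of U14 of the small-subunit RNA. U14 also pairs with the precursor of that RNA through a second stretch in its interior and is required for its processing. In animals its copies lie in introns of other genes and are trimmed out of the spliced intron.

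The 4 snoRNAs are shown whole because the place of the reads along them is the main result. Capitals mark the first 17 bases, the longest stretch from the 5′ end that a read in these data can show. The sequences are those of GENCODE M21.
Snord14a: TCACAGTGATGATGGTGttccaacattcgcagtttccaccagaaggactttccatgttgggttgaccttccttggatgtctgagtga
Snord14c: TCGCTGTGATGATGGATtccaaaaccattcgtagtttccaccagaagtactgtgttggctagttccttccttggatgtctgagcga
Snord14d: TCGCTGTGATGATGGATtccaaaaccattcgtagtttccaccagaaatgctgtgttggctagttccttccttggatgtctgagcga
Snord14e: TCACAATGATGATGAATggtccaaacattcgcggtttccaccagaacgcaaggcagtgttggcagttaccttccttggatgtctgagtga

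In the GRCm38 genome Snord14a lies on chromosome 7 at 116333171 to 116333257, on the minus strand, in intron 3 of Rps13, which encodes a protein of the small ribosomal subunit. The other copies lie on the plus strand of chromosome 9 in introns of Hspa8, which encodes the constitutive heat shock protein Hsc70. Snord14c is at 40803583 to 40803668 in intron 5, Snord14d at 40803995 to 40804080 in intron 6, and Snord14e at 40804748 to 40804837 in intron 8. Introns were numbered on the transcripts Rps13-201 and Hspa8-201. Unspliced or partly spliced annotated transcripts of both hosts also contain the snoRNAs, and 1 retained-intron transcript of Hspa8 holds all 3 of that gene.

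Snord14c and Snord14d are nearly the same RNA. They agree at 84 of 86 bases and differ at bases 47 and 49 alone, counted from 1 at the 5′ end. The other pairs are 78.0% to 82.6% identical, and each differs from the others at 4 of the first 17 bases. The letters TGATGA, the core of box C, stand at bases 7 to 12 in all 4 copies. They were found in the first 17 bases of 327 of the 1558 annotated snoRNA and scaRNA transcripts (20.99%), and their reverse complement in 3 (0.193%). Box D, CTGA, ends at base 82 of Snord14c and Snord14d, and the first and last 5 bases of these copies can pair.

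All 4 copies share a run of 13 bases, gtttccaccagaa, and a run of 19 bases, ccttccttggatgtctgag, which takes in box D and the guide stretch upstream of it. A read of 15 to 17 nt that lies wholly in the run of 19 bases would not tell the copies apart. The run of 13 bases is shorter than any read of these lengths. Of the 213 distinct windows of 15 to 17 nt in Snord14c, 53 occur in no other copy, and of the 213 in Snord14d, 54. In Snord14a the number is 191 of 216 and in Snord14e 201 of 225.

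Nearly all reads came from the 5′ end of Snord14c or Snord14d. With DMSO 374 of the 391 family reads started at base 1 of a copy, 95.7% (95% Clopper-Pearson interval 93.1 to 97.4), and with SB431542 84 of 87, 96.6% (90.3 to 99.3). These shares leave out by rule any read that begins before base 1. A further 199 reads with DMSO and 69 with SB431542 began 1 base earlier and are described below. Sequences that Snord14c and Snord14d share and the other copies lack made up 387 of the 391 reads with DMSO, 99.0% (97.4 to 99.7), and 83 of the 87 with SB431542, 95.4% (88.6 to 98.7). The sequences behind this are 3 nested fragments that start at base 1. They are printed with box C in capitals.
Bases 1 to 15: tcgctgTGATGAtgg
Bases 1 to 16: tcgctgTGATGAtgga
Bases 1 to 17: tcgctgTGATGAtggat

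Each of these fragments contains the 5′ side of the terminal stem and the whole of box C, and stops well before the first run shared by all copies. The fragment of 17 nt had 165 reads with DMSO (167 RPM) and 41 with SB431542 (79.2 RPM). For the fragment of 15 nt the reads were 114 (115 RPM) and 21 (40.6 RPM). The fragment of 16 nt had 93 reads (93.9 RPM) and 19 (36.7 RPM). Levels were lower in the SB431542 library for each of the 3, and in both libraries the 17 nt fragment was the most abundant. The other 12 sequences of the family had at most 5 reads each over both libraries, 19 reads in all with DMSO and 6 with SB431542.

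**Figure D1:**
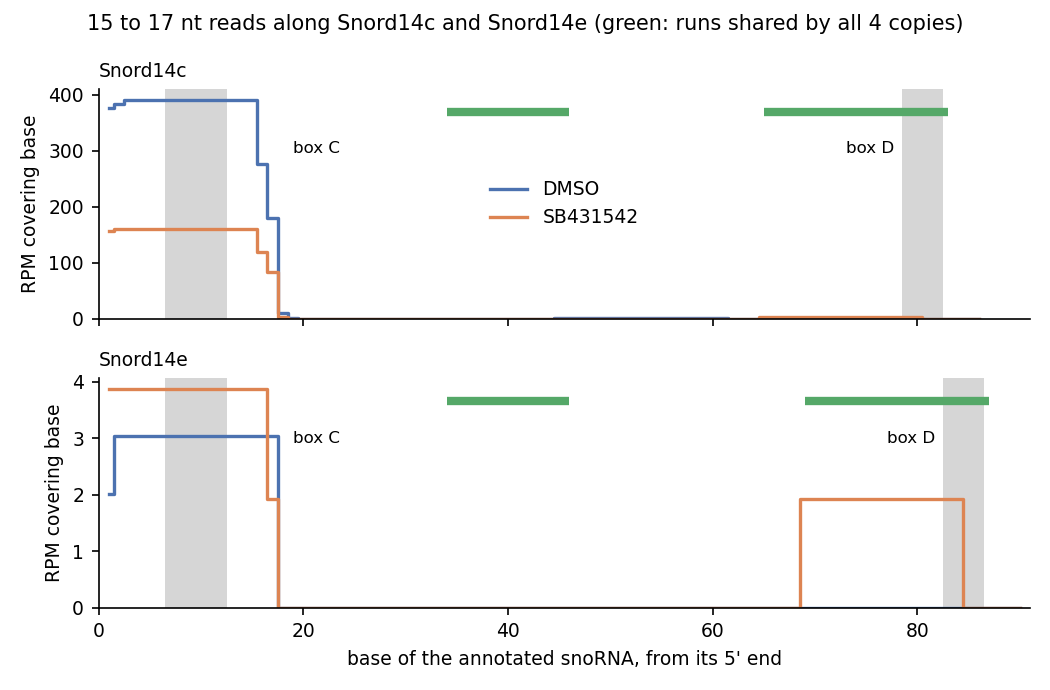
Reads of 15 to 17 nt covering each base of Snord14c (top) and Snord14e (bottom), in RPM on separate linear axes, for the DMSO and SB431542 libraries. Grey bands mark the letters of box C and box D and green bars the runs shared by all 4 copies. Snord14c coverage is confined almost wholly to the first 17 bases, where Snord14d has the same sequence, while no base of Snord14e passes 4 RPM.

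The rest of each RNA was almost empty of reads. The run of 19 bases with the guide stretch and box D was touched by 0 reads with DMSO and 1 with SB431542, a sequence of 16 nt that all 4 copies hold. The run of 13 bases was touched by 1 read with DMSO, from the only sequence found in Snord14c alone, which starts at base 45 and covers the differences from Snord14d. Antisense to the copies there were 0 reads in each library, a count whose one-sided limit is 3.03 RPM with DMSO and 5.80 RPM with SB431542. The sense reads thus had no counterpart on the other strand at this depth.

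Sequences that only 1 copy holds were rare. Those of Snord14e had 3 reads with DMSO and 2 with SB431542, and 4 of these 5 reads covered base 1 onward as in Snord14c. Snord14a had 0 reads with DMSO and 1 with SB431542, again from base 1. Snord14c had 1 read with DMSO and 0 with SB431542, and Snord14d 0 in both. Snord14a and Snord14e differ from the other copies within the first 17 bases, so few reads of this fragment came from those copies, at or under the floor of 3 reads in each library. For Snord14c and Snord14d the numbers say only that 1 read came from the part of the RNA where they differ.

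Reads that begin 1 base before the annotated 5′ end did tell Snord14c and Snord14d apart. These are outside the rule for the family, since they cross the end of the annotated gene, and were found by matching up to 20 bases on either side in the host transcripts that hold the snoRNAs. The base before base 1 is T in Snord14c and C in Snord14d. It is shown in capitals in the leading sequences of each copy.
Snord14d, ending at base 16: Ctcgctgtgatgatgga
Snord14d, ending at base 15: Ctcgctgtgatgatgg
Snord14c, ending at base 16: Ttcgctgtgatgatgga
Snord14c, ending at base 15: Ttcgctgtgatgatgg

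Reads with the extra C of Snord14d numbered 135 with DMSO (136 RPM) and 44 with SB431542 (85.0 RPM). Reads with the extra T of Snord14c numbered 64 with DMSO (64.6 RPM) and 25 with SB431542 (48.3 RPM). Snord14d therefore held 67.8% of the reads that could be told apart with DMSO (60.9 to 74.3) and 63.8% with SB431542 (51.3 to 75.0). It was the larger part in both libraries, and the intervals overlap. Reads with an A or G at that place, which neither copy has, numbered 0 in both libraries, so an added A or G was not detectable at this depth. An untemplated T or C could not be told from the base of the other copy. All the sequences with the extra base matched Hspa8 and no other gene in the annotated transcripts. Whether they occur elsewhere in the genome was not tested. No read began 1 base before Snord14a or Snord14e.

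At the other end 3 sequences ran 1 base past the annotated 3′ end of Snord14c and Snord14d, with 4 reads in each library (4.04 RPM with DMSO and 7.73 RPM with SB431542). The base after the last is A in both copies, so these reads do not separate them. No read lay further out in the intron, within the 20 bases searched on either side of any copy. Over the whole of that retained-intron transcript of Hspa8, no read of 15 to 17 nt lay outside the spliced exons of Hspa8-201, the snoRNAs and the sequences crossing their ends. The spliced Hspa8 transcript itself had 41 sense reads with DMSO and 31 with SB431542, and 2 and 0 antisense. The spliced Rps13 transcript had 4 and 3 sense reads and 0 antisense. Spliced Hspa8 thus gave fewer short reads than the 5′ end of Snord14c and Snord14d, which was not so for Rps13 and Snord14a.

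**Figure D2:**
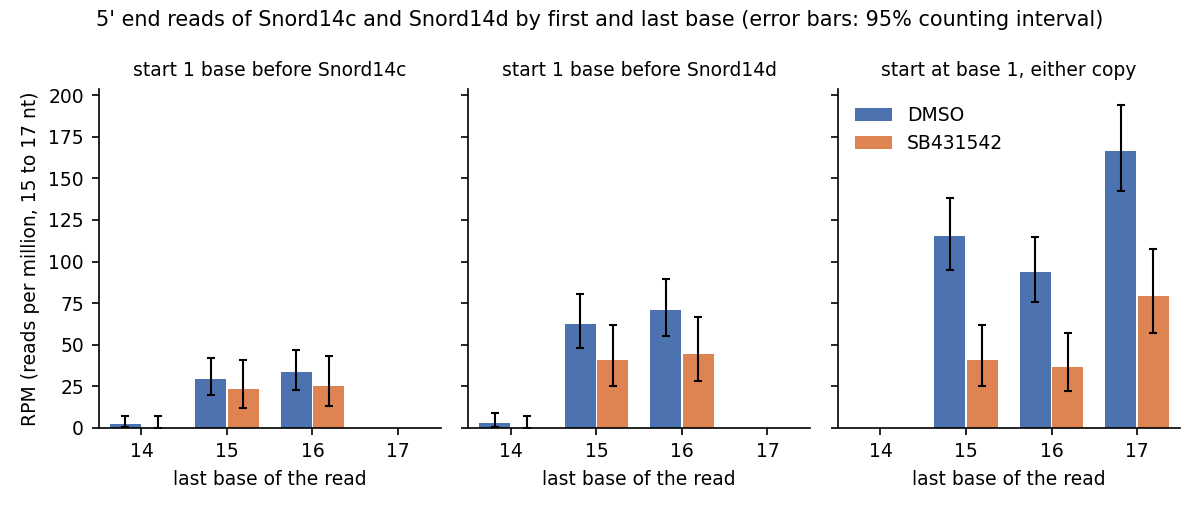
Levels in RPM of 5′ end reads of Snord14c and Snord14d by last base, for reads that start 1 base before Snord14c (left), 1 base before Snord14d (middle) and at base 1 of either copy (right), with 95% Poisson counting intervals. A read from base 1 to base 14 is under 15 nt and one from the base before to base 17 is over 17 nt, so those bars are not drawn. Snord14d bars are higher than Snord14c bars in both libraries, and the gap between the libraries is widest on the right.

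The 3′ ends of the fragments had a sharp lower limit at base 15. From base 1 the DMSO library had 114 reads of 15 nt but 3 of 14 nt, and none of 10 to 13 nt. With SB431542 there were 21 reads of 15 nt and none of 10 to 14 nt. Among the reads that begin 1 base earlier the same limit appeared 1 nt further in length: with DMSO 91 ended at base 15 and 5 at base 14, and with SB431542 33 and 0. The last base and not the length was thus common to both starts. Summed over all sequences, reads of 14 nt made up 9.39% of the DMSO library and those of 15 nt 16.7%. In the SB431542 library these shares were 10.2% and 16.4%. Such a sum mixes fragments with different ends and cannot show how sharply any single one is bounded. Whether the limit is particular to this fragment was not tested. Where longer fragments end cannot be seen, since 17 nt is the longest sequence analysed.

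**Figure D3:**
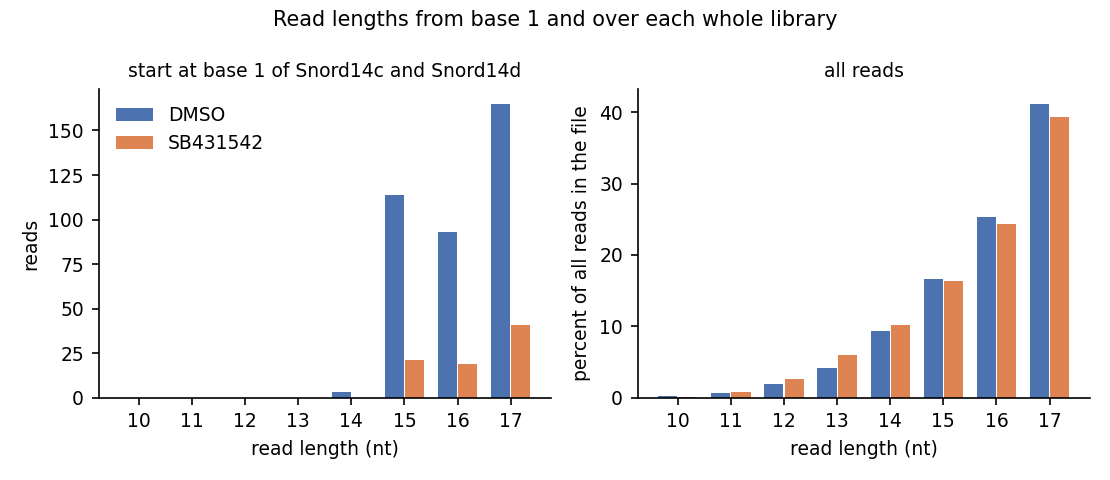
Reads of 10 to 17 nt that start at base 1 of Snord14c and Snord14d (left, number of reads) and all reads of the same lengths (right, percent of each library). The left panel drops from 114 reads at 15 nt to 3 at 14 nt with DMSO, while the right panel declines in steps toward shorter reads.

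Within the range seen, the lengths of the family were compared between the libraries. Sequences of 15, 16 and 17 nt held 29.9%, 25.8% and 44.2% of the family reads with DMSO. With SB431542 they held 24.1%, 25.3% and 50.6%. The interval for 17 nt was 39.3 to 49.3 with DMSO and 39.6 to 61.5 with SB431542, so a difference was not detectable at this depth. Among all reads of 15 to 17 nt, 49.5% with DMSO and 49.1% with SB431542 were of 17 nt.

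The comparison of the libraries asked how the level of these fragments stood in cells with the receptor inhibitor. The family as defined by the annotated genes had 391 reads with DMSO, 395 RPM (357 to 436), and 87 with SB431542, 168 RPM (135 to 207). It was 2.35-fold lower in the SB431542 library, a log2 ratio of -1.23 (-1.58 to -0.89). The fragment of bases 1 to 15 had a log2 ratio of -1.50 (-2.25 to -0.82), that of bases 1 to 16 of -1.36 (-2.15 to -0.63) and that of bases 1 to 17 of -1.07 (-1.60 to -0.57). These intervals overlap, and the 3 fragments share their source. Of the 2446 distinct sequences of 15 to 17 nt that reached 50 reads in the 2 libraries combined, 14.5% were 2-fold or more lower with SB431542, and the median log2 ratio was -0.10. The 3 described sequences of the family were all past 2-fold, with a median of -1.36, but they are nested forms of 1 fragment and count as a single case.

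Base composition moved with the level in these libraries. Outside the family, the median log2 ratio was -0.50 for 803 sequences of 40 to 50% GC and -0.27 for 1154 of 50 to 60% GC. These medians took a lower minimum than the 50 reads used above, so the sequences are not the same set. The 40 to 60% GC range holds 388 of the 391 family reads with DMSO and 85 of the 87 with SB431542. Divided by the median of its GC bin, the family stood at -0.83 (-1.18 to -0.49), less than 2-fold lower. The miRNA hairpins, 7.94% of the reads with DMSO and 4.28% with SB431542, were lower too, with a log2 ratio of -0.89 (-0.91 to -0.87). Treatment and library preparation cannot be told apart with 1 library in each group, nor can fewer snoRNA molecules and a smaller yield of short fragments from them.

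Reads that began 1 base before base 1 differed less between the libraries than those that began at base 1. Together they numbered 199 with DMSO (201 RPM) and 69 with SB431542 (133 RPM), a log2 ratio of -0.59 (-1.01 to -0.19). Those of Snord14d stood at -0.68 (-1.21 to -0.18) and those of Snord14c at -0.42 (-1.15 to 0.27). The reads from base 1 of the same copies, 372 with DMSO (376 RPM) and 81 with SB431542 (157 RPM), stood at -1.26 (-1.63 to -0.91). The ratio of the longer to the annotated start was 1.59-fold higher in the SB431542 library (log2 0.67, 0.32 to 1.04).

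The starts were also counted where both could be measured to the same last base. This count reuses nearly all the early-start reads above and leaves out those from base 1 to base 17. It is therefore no independent check. Among reads that end at base 15 or 16, 194 of 401 began 1 base early with DMSO, 48.4% (43.4 to 53.4), and 69 of 109 with SB431542, 63.3% (53.5 to 72.3). For reads ending at base 15 the shares were 44.4% (37.5 to 51.5) and 61.1% (46.9 to 74.1), and for those ending at base 16 they were 52.6% (45.3 to 59.7) and 65.5% (51.4 to 77.8). Both were higher with SB431542, but for each last base alone the intervals overlap. Taken with all sequences that cross an annotated end, the family had 594 reads with DMSO (600 RPM) and 160 with SB431542 (309 RPM). Its log2 ratio was then -0.96 (-1.22 to -0.70), or 1.94-fold lower, so the place past 2-fold rests on where the annotation begins the gene.

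Among snoRNAs and scaRNAs the family was the third by reads. Genes that share sequences were joined for this into units, of which 127 had a read and 9 had at least 50 over both libraries. Of the 9 units, 11.1% were at least 2-fold lower with SB431542, which is the Snord14 family itself and no other unit. That call counts only reads inside the annotated genes. With the sequences crossing its ends the family stood at -0.96, under 2-fold, and for the other units such sequences were not counted. Just under 50 reads, Snord93 with Mir3096, named after its values were seen, had 36 reads with DMSO and 7 with SB431542 and a log2 ratio of -1.43 (-2.84 to -0.24). The other 8 had log2 ratios from -0.62 to -0.06 with a median of -0.35, all below 0, and the interval lay wholly below 0 for 3 of them. Snord83b, the most abundant, had 2730 reads with DMSO (2757 RPM) and 1134 with SB431542 (2191 RPM), a log2 ratio of -0.33 (-0.43 to -0.23).

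Relative to the reads of all other snoRNA and scaRNA genes, 4302 with DMSO and 1791 with SB431542, the family was 1.87-fold lower in the SB431542 library (log2 -0.90, -1.26 to -0.57). Without Snord83b among those reads the value was -0.91 (-1.26 to -0.57). With the sequences crossing the annotated ends counted in the family it was -0.63 (-0.89 to -0.37). For the other genes such sequences were not counted, so in this value the sides follow unlike rules. The family was thus lower than the other snoRNA fragments as a whole on each of these scales, with each interval wholly negative. These intervals treat each read as a separate molecule, and spread between libraries was not measured.

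**Figure D4:**
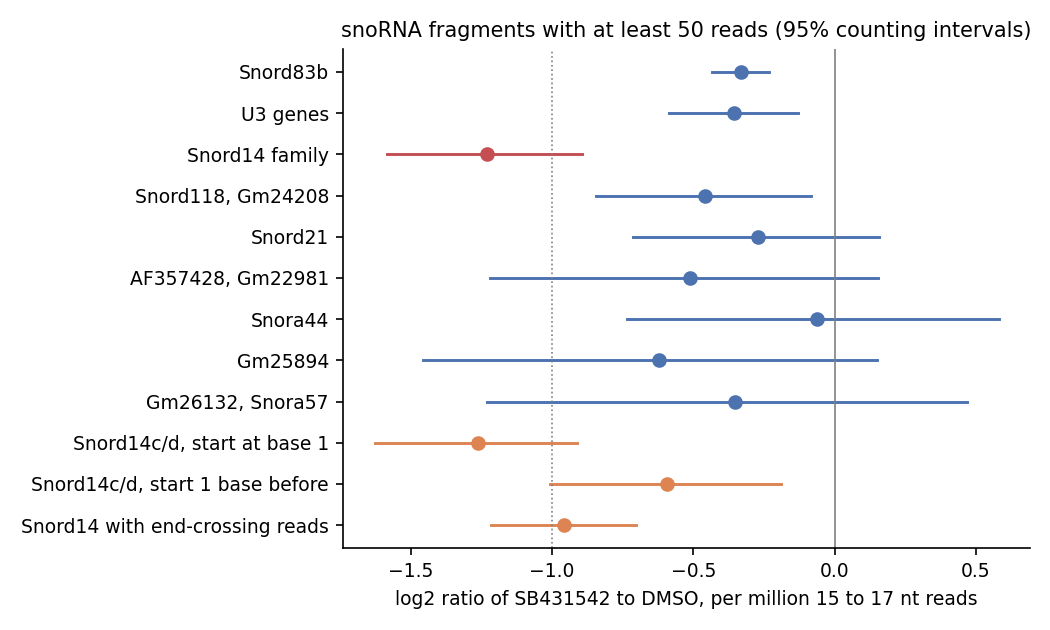
Log2 ratio of SB431542 to DMSO, per 1000000 reads of 15 to 17 nt, for the 9 snoRNA and scaRNA units with at least 50 reads (red, Snord14 family; blue, others) and for subsets of the Snord14 reads (orange), with 95% counting intervals. The dotted line marks 2-fold lower. The family at -1.23 lies left of that line, and the reads that start 1 base before Snord14c or Snord14d, at -0.59, lie among the other units.

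Other snoRNAs that act in processing of the ribosomal RNA precursor were together less far below the DMSO level than the family. U3, which pairs with the external spacer of the precursor and with the small-subunit RNA, had 552 reads with DMSO and 226 with SB431542, a log2 ratio of -0.35 (-0.58 to -0.13). Snord118, or U8, which acts on the large-subunit side, had 213 and 81 (log2 -0.46, -0.85 to -0.08). Snord22 had 18 and 7 reads, Snora73a 11 and 5, Snora73b 4 and 2, and Snord13 2 and 4, each with an interval that included 0. Of these Snord13 alone was higher with SB431542, with a log2 ratio of 1.94 (-0.87 to 5.40). Together these genes had 800 reads with DMSO and 325 with SB431542, a log2 ratio of -0.36 (-0.55 to -0.18). None of the 6 was past 2-fold lower.

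Among reads inside the annotated genes, a single dominant start was not particular to the Snord14 family. The commonest start held 95.8% of its reads, 97.2% of those of Snord83b, at base 4, and 93.8% of those of AF357428 and Gm22981, at base 3. The 95.8% leaves out 268 reads over both libraries that began 1 base before base 1, against 458 at base 1. Reads that cross an annotated end were not counted for the other units. Of the other 8 units 1 had at least 90% of its reads at annotated base 1, Snora44 with 98.9%. By contrast the commonest start held 41.2% of the U3 reads and 34.4% of those of Snord21. Fragments of the 5′ end that begin within a few bases of the annotation were thus found for Snord83b and AF357428 as well as for Snord14c and Snord14d. For Snord83b and AF357428 the letters TGATGA lie in the first 17 bases of the annotated RNA. Whether their fragments take in those letters was not tested.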

How the data were processed

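The deposited files, which have no header, hold raw read counts per distinct sequence of 3 to 17 nt, judged from their whole-number values, and show no normalization by the authors. For the adapter trimming, read filters and aligner the sources used here say nothing. The submitters' processing notes name build mm9, but the deposited files carry no coordinates. Per the labels' protocols, libraries were made from total RNA with an Illumina TruSeq RNA kit.

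Sequences of 15 to 17 nt were matched exactly to GENCODE M21 transcripts (GRCm38) on both strands. A sequence counted as snoRNA or scaRNA if it matched no other small RNA class and at most 5 other genes. Ratios carry exact conditional binomial 95% intervals, shares Clopper-Pearson and levels Poisson intervals. With 1 library a group no test was made. Features that reached 50 reads in both libraries combined were described, and a call means 2-fold. All 4 members were named, with the 3 most abundant other units, U3, Snord83b and Snord118, a list of processing snoRNAs and both host genes. U3 was matched as the Rnu3a and Rnu3b genes, a spelling found after the list was made. The members, lists and rules were chosen with earlier results of these data known. The ratio intervals were checked on simulated Poisson counts, without PCR copies or spread between libraries. The matching of reads to transcripts was not checked on simulated reads. Python 3.11.15 with numpy 2.4.6, scipy 1.17.1, Biopython 1.88 and matplotlib 3.10.9 was used, with edgeR 4.0.16 and DESeq2 1.42.0 for library factors alone.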

Additional observations from a re-analysis of the deposited data

Results flagged for a closer look

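Of the reads of Snord14c and Snord14d that end at base 15 or 16, 63.3% began 1 base before the annotated snoRNA in the SB431542 library, above the 48.4% of the DMSO control. These reads lie outside the annotated genes that define the family. Sequences that run 1 base past the 3′ end stood at 7.73 RPM with SB431542 (2.11 to 19.8) and 4.04 RPM with DMSO (1.10 to 10.3), 4 reads in each library, so a difference was not detectable at this depth.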

How the results depend on the processing

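The log2 ratio of the family was below 0 under all 19 alternatives run, 16 from the plan and 3 added after seeing the data, and ranged from -1.36 to -0.34. It was at least 2-fold lower under 13 and less than 2-fold under 6. Among the 13, subtracting antisense reads and leaving out sequences in transcripts of other genes removed no read. Those settings therefore could not move the ratio. It moved outside its own counting interval with miRNA hairpin reads as the total (-0.34, -0.69 to -0.0035), a total that is itself lower with SB431542, with the GC correction (-0.83), and without the 3 most abundant sequences (-0.73, -2.34 to 0.65), which leaves 19 and 6 reads. Values under 2-fold were also given by the other snoRNA reads as the total, with or without Snord83b (-0.90 and -0.91), and by adding sequences that cross the annotated ends (-0.96). With edgeR factors the ratio was -1.07 and with DESeq2 size factors -1.03. The share of family reads at base 1 was 33.3% with DMSO and 66.7% with SB431542 when distinct sequences were counted in place of reads, 4 of 12 and 6 of 9 sequences, and 92.5% with DMSO without the most abundant sequence. No alternative for this share added the reads that begin 1 base before base 1. Dividing shared sequences equally gave Snord14c 194.5 reads with DMSO and 41.75 with SB431542, and Snord14d 193.5 and 41.75, since the copies share their 5′ end. The cause of the other shifts was not tested. The 2 settings that need matches to the whole genome were not run. No paired analysis was possible because each group had 1 library. Depth limits what can be said of Snord14a and Snord14e, with 1 and 5 reads of their own.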

Other observations

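Sequences with a single mismatch to a Snord14 copy, which the exact match leaves out, had 9 reads with DMSO and 3 with SB431542. Of these 12 reads 9 began at base 1 or 2 and had the mismatch at their last base.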
